A study of Homo sapiens with 12 samples.

Results

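Genes that sense viral nucleic acid or carry the interferon signal were followed in SK-UT-1 cells, an established line from a human uterine leiomyosarcoma (uLMS), after treatment with BET bromodomain inhibitors (BETis). They were the double-stranded RNA sensors TLR3, IFIH1 (MDA5) and DHX58 (LGP2), the transcription factor IRF3, the receptor chain IFNAR1, the kinase JAK1, and the transcription factors STAT2, IRF9 and IRF1. They were listed by name for their place upstream of the interferon-stimulated genes, when earlier results of these data were known, and the 9 genes are among the 22784 gene symbols with expression values, each with a value in every library. All 9 passed the filter for testing, a normalized count of at least 10 in at least 3 libraries, as did 14839 symbols in all.

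RNA was sequenced after 48 h with the vehicle DMSO (labelled VEH, 3 libraries, replicates 13, 14 and 15), with 5 µM JQ1 (4 libraries, replicates 17 to 20) or with 5 µM I-BET 762 (3 libraries, replicates 21, 22 and 23). JQ1 and I-BET 762 are small molecules that fill the pocket by which BET proteins bind acetylated histones. All libraries come from a single cell line with no genetic change named, and nothing in the labels says that replicates were separate cultures, so the p-values measure the spread between these libraries, which may be technical. DMSO replicate 16 and I-BET 762 replicate 24 were not analysed here.

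In the textbook pathway, IFIH1 and TLR3 bind double-stranded RNA in the cytosol and in endosomes, DHX58 modulates the cytosolic sensors, and their adaptors activate IRF3, which switches on the genes for type I interferons. Secreted interferon binds a receptor made of IFNAR1 and IFNAR2, whose kinases JAK1 and TYK2 phosphorylate STAT proteins. STAT2 and IRF9 are subunits of the complex ISGF3, which binds the interferon-stimulated response element (ISRE), while STAT dimers bind the gamma-activated site (GAS), and IRF1 is a GAS-driven factor that itself binds ISRE-like sequences. Several sensors are themselves interferon-stimulated genes, so the pathway feeds back on its own components.

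Of the 9 genes, 4 fell and 1 rose with each inhibitor. TLR3, IFIH1, DHX58 and IRF9 fell, by 14.4-, 5.26-, 3.84- and 2.30-fold with JQ1 and by 7.36-, 3.27-, 2.66- and 1.53-fold with I-BET 762. JAK1 rose 1.89-fold and 1.75-fold, and STAT2, IRF1, IRF3 and IFNAR1 stayed within 1.5-fold of DMSO with both inhibitors. A gene was called changed, as a DEG, at an adjusted p under 0.05 in limma and a fold change over 1.5. Among all tested symbols 36.1% were called with JQ1 (13.3% higher and 22.8% lower) and 26.9% with I-BET 762 (8.96% higher and 17.9% lower). Both inhibitors were compared with the same 3 DMSO libraries. In bulk RNA, fewer cells of a type and less RNA per cell cannot be told apart.

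The libraries held 35564586 to 39658989 reads on genes, and a count of 0 allowed up to 3 reads, or 2.73 to 3.30 normalized counts, for counting error only. VIM, a mesenchymal marker, was at 110805.0 to 161468.1 normalized counts and ACTA2, a smooth-muscle actin, at 2684.4 to 7325.7, while the immune markers PTPRC, CD68 and LYZ were at 4.01 or less and CD14, the highest of that list, at 17.7 to 37.0. Of the epithelial markers, KRT18 was at 165.9 to 294.9, KRT8 at 80.1 to 187.7, EPCAM at 12.2 to 42.8 and CDH1 at 13.7 or less. KRT8 and EPCAM were called lower with both inhibitors and KRT18 with JQ1. The endothelial markers PECAM1, VWF and CDH5 were at 4.06 or less. The smooth-muscle marker MYH11 and the immune marker CD3E had no values. The smooth-muscle markers ACTA2, TAGLN, CNN1, DES and CALD1 fell with both inhibitors, while VIM, on the same list, was higher in all treated libraries (0.44 on the log2 scale with JQ1 and 0.12 with I-BET 762, under 1.5-fold), and the part of these markers in the interferon results was not tested. HEXIM1, a common readout of BET inhibition, rose by 1.53 on the log2 scale with JQ1 and by 1.05 with I-BET 762. MYC, the other inhibitor response marker listed, which often falls under BET inhibition, rose with JQ1 (95% interval 0.89 to 1.12 on the log2 scale) and differed by 0.54, under 1.5-fold, with I-BET 762.

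Promoter windows of 300 bases, 250 before and 50 after a transcription start, were found in the RefSeq table for GRCh38.p14 for 7 of the 9 genes, in 10 windows, since IFNAR1 has 2 starts and JAK1 has 3. DHX58 and IRF3 have no entry. The windows were searched on both strands for an ISRE core, GAAA-NN-GAAA, and a GAS core, TTC-NNN-GAA, where N is any base. The ISRE core was present in 3.57% and the GAS core in 7.66% of 35116 windows of all genes. The matches are shown because they are where ISGF3 and STAT dimers, the last steps of the pathway, could in principle return to its own genes. Each line runs 5′ to 3′ on the gene's strand with the matched core in capitals, and a core matched on the opposite strand therefore reads as TTTC-NN-TTTC.
TLR3, ISRE core on the opposite strand, chr4:186069142-186069171, plus strand: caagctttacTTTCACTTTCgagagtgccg
IFIH1, ISRE core on the gene's strand, chr2:162318686-162318715, minus strand: gaagagaatcGAAACAGAAAccaaagtcag
IFIH1, ISRE core on the opposite strand, chr2:162318824-162318853, minus strand: gagaattcgcTTTCCTTTTCtgtttcccgc
IRF9, GAS core, chr14:24161192-24161220, plus strand: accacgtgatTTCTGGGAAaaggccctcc
IRF1, GAS core, chr5:132490879-132490907, minus strand: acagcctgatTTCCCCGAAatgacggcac

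The TLR3 window held the ISRE core across its start, from base -4 to base 6, and GAS cores that began at -178 and -50. All 3 matches lie within an exon of TLR3 in Gencode V44, in which the gene begins upstream of the RefSeq start used here. The IFIH1 window held its ISRE core from -21 to -12, and a pair of overlapping matches on the opposite strand, at -159 to -150 and -153 to -144. The IRF9 and IRF1 windows each held 1 GAS core and no ISRE core. The STAT2 window, both IFNAR1 windows and the 3 JAK1 windows held neither. With 1 mismatch allowed, 33.0% of all windows held the ISRE core and 66.1% the GAS core. A match is a run of letters and no measurement of binding, and no match says only that these letters are not in the window.

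**Figure D1:**
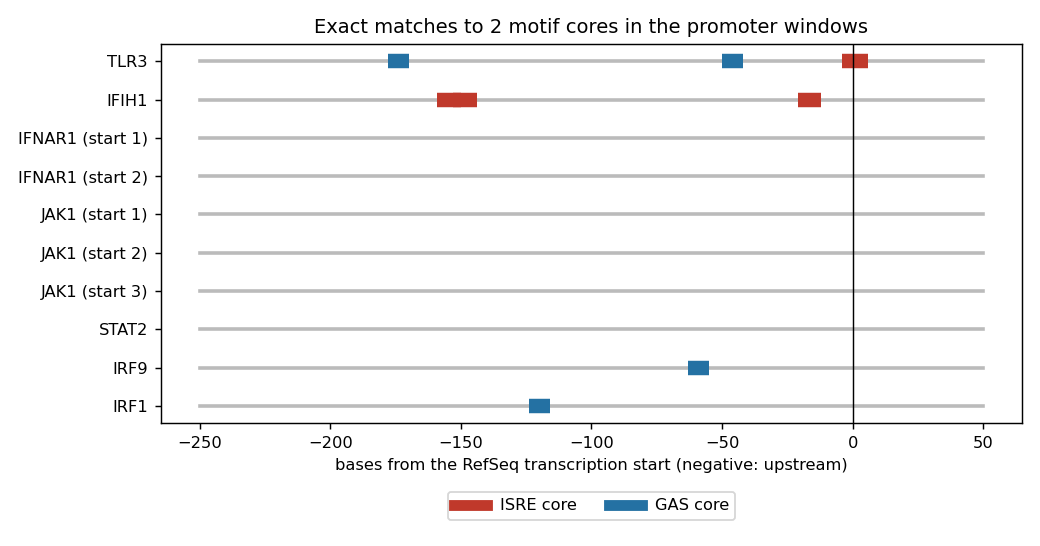
Exact matches to the ISRE core (red) and the GAS core (blue) in the 10 promoter windows of 7 genes, drawn to scale as bases from the RefSeq transcription start (negative, upstream). TLR3 and IFIH1 are the 2 genes with an ISRE core, TLR3, IRF9 and IRF1 the 3 with a GAS core, and STAT2, IFNAR1 and JAK1 have neither.

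TLR3, the endosomal receptor for double-stranded RNA (ENSG00000164342.14, hg38 chromosome 4, 186068911 to 186088073, plus strand), had the largest change of the 9 genes. It stood at 860.0, 968.9 and 911.9 normalized counts with DMSO, at 67.0, 64.2, 64.0 and 55.8 with JQ1 and at 127.9, 131.3 and 111.2 with I-BET 762. The 3 groups did not overlap, and every JQ1 library lay below every I-BET 762 library. TLR3 fell by 3.84 on the log2 scale with JQ1 (SE 0.11, adjusted p = 8.36e-14) and by 2.88 with I-BET 762 (SE 0.12, adjusted p = 1.46e-11). Even the lowest library, at 55.8, was far above the limit for a count of 0.

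IFIH1, the cytosolic sensor of long double-stranded RNA (ENSG00000115267.10, chromosome 2, 162267074 to 162318684, minus strand), was more tightly measured than TLR3 and DHX58. Its normalized counts were 5325.8, 5231.7 and 5387.4 with DMSO, 938.4, 1049.9, 1047.5 and 1006.1 with JQ1, and 1665.9, 1594.1 and 1611.5 with I-BET 762. All JQ1 libraries were lowest, all DMSO libraries highest, and the gaps between groups were wider than any spread within one. IFIH1 fell by 2.40 on the log2 scale with JQ1 (SE 0.05, adjusted p = 7.87e-15) and by 1.71 with I-BET 762 (SE 0.05, adjusted p = 1.81e-12).

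DHX58, the relative of IFIH1 that lacks its signalling domains (ENSG00000108771.13, chromosome 17, 42101404 to 42112714, minus strand), was at 581.1, 579.7 and 686.2 normalized counts with DMSO. JQ1 libraries were at 152.7, 157.8, 175.1 and 151.1, and I-BET 762 libraries at 248.0, 238.6 and 205.7. The order of the groups was that of TLR3 and IFIH1, again with no overlap. DHX58 fell by 1.94 on the log2 scale with JQ1 (SE 0.10, adjusted p = 7.78e-11) and by 1.41 with I-BET 762 (SE 0.11, adjusted p = 1.75e-08).

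IRF3, the factor that the sensors activate by phosphorylation (ENSG00000126456.16, chromosome 19, 49659569 to 49665875, minus strand), differed from DMSO by far less than the sensors. Its normalized counts were 2126.8, 2034.8 and 2065.8 with DMSO, 2369.1, 2462.2, 2383.0 and 2496.1 with JQ1, and 2437.3, 2251.8 and 2042.7 with I-BET 762. The JQ1 libraries lay above all DMSO libraries, while the I-BET 762 libraries were spread across both. The log2 difference was 0.23 with JQ1 (SE 0.06, adjusted p = 0.00211) and 0.11 with I-BET 762 (95% interval -0.02 to 0.24, adjusted p = 0.133), under 1.5-fold in both. After scaling to equal totals the JQ1 difference was 0.04 (adjusted p = 0.53). Of the IRF3 exon bases in Gencode V44, 19.3% lie opposite an exon of BCL2L12, whose mean was 919.8 normalized counts with DMSO, 1282 with JQ1 and 1127 with I-BET 762. The strand setting of the counting is not given in the sources used here, so it is not known whether the reads of the 2 genes in that stretch were kept apart.

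**Figure D2:**
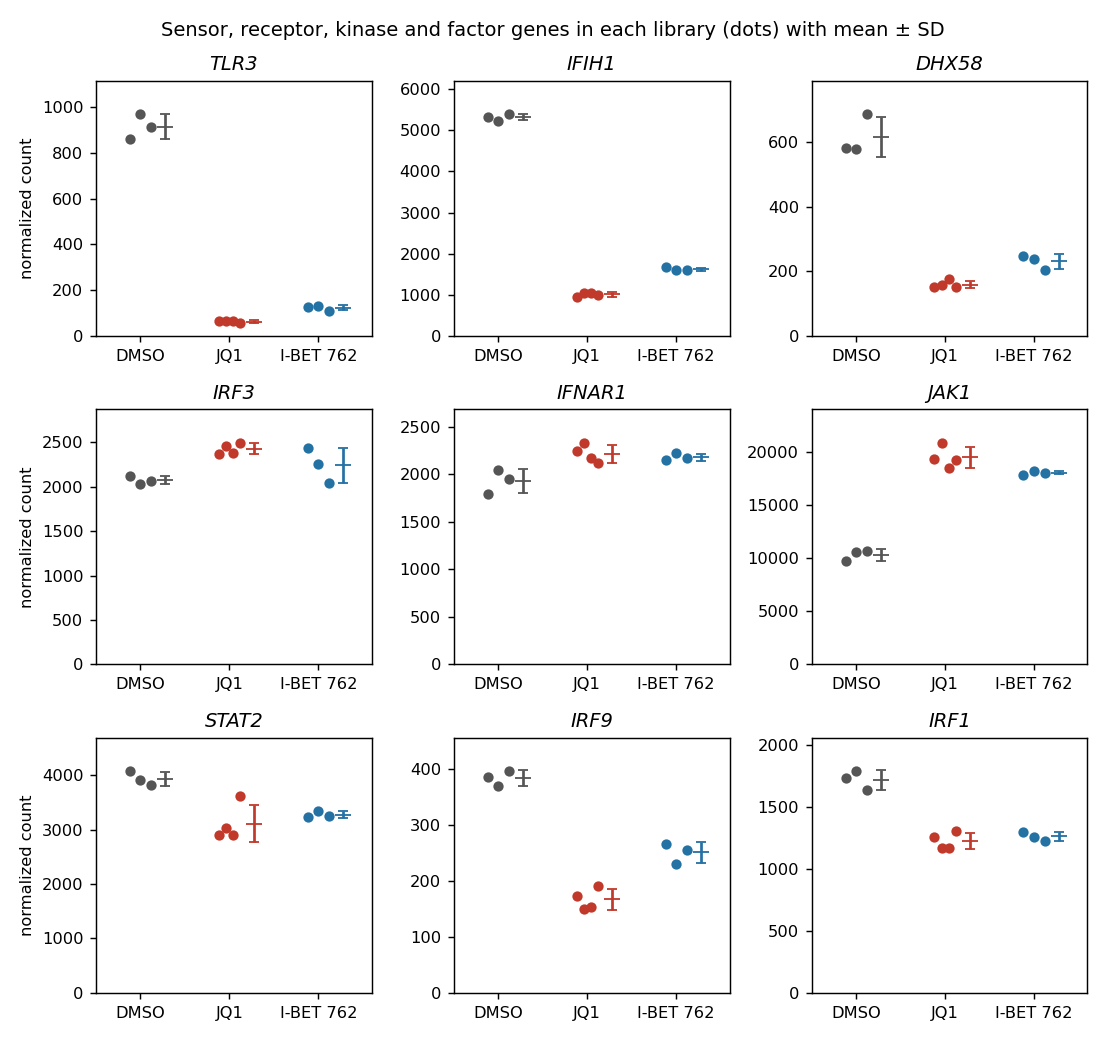
Normalized count (vertical axis, linear from 0, a separate scale for each gene) of the 9 genes in each of 3 DMSO (grey), 4 JQ1 (red) and 3 I-BET 762 (blue) libraries, with the mean and SD beside the dots. TLR3, IFIH1, DHX58 and IRF9 step down from DMSO to I-BET 762 to JQ1, JAK1 sits at 10306.8 on average with DMSO and at 19463.6 with JQ1, and 1 of the STAT2 dots of JQ1 lies well above the other 3.

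At the receptor, IFNAR1, the signalling chain that type I interferons engage (ENSG00000142166.15, chromosome 21, 33324387 to 33359864, plus strand), had 1796.6, 2049.6 and 1952.9 normalized counts with DMSO. It had 2251.5, 2333.8, 2171.0 and 2119.8 with JQ1 and 2150.0, 2220.7 and 2170.6 with I-BET 762. Treated libraries were all above the DMSO libraries by a narrow margin. The log2 differences were 0.20 with JQ1 (SE 0.05, adjusted p = 0.00372) and 0.18 with I-BET 762 (SE 0.06, adjusted p = 0.0158), both under 1.5-fold. The I-BET 762 difference was not past the adjusted p without DMSO replicate 13 (0.0923) or without I-BET 762 replicate 22 (0.0592). Scaling to equal totals brought them to 0.015 (adjusted p = 0.781) and 0.08 (adjusted p = 0.176).

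JAK1, the tyrosine kinase bound to the other receptor chain, IFNAR2, and shared by many cytokine receptors (ENSG00000162434.14, chromosome 1, 64833223 to 65067754, minus strand), was the only one of the 9 genes called higher. Its normalized counts were 9683.1, 10565.2 and 10671.9 with DMSO, 19340.3, 20843.2, 18468.1 and 19202.8 with JQ1, and 17855.3, 18144.4 and 18045.2 with I-BET 762. The treated libraries lay far above the DMSO libraries, and all JQ1 libraries lay above the I-BET 762 libraries. JAK1 rose by 0.92 on the log2 scale with JQ1 (SE 0.05, adjusted p = 1.83e-10) and by 0.81 with I-BET 762 (SE 0.05, adjusted p = 4.8e-09). It was called higher with both inhibitors after scaling to equal totals too, at 0.73 and 0.71.

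STAT2, the ISGF3 subunit that carries the transactivation domain (ENSG00000170581.15, chromosome 12, 56341597 to 56360203, minus strand), was lower in all treated libraries but not by 1.5-fold. DMSO libraries had 4071.6, 3902.3 and 3811.2 normalized counts, JQ1 libraries 2902.0, 3020.3, 2904.3 and 3618.8, and I-BET 762 libraries 3228.4, 3342.5 and 3257.4. The JQ1 value of 3618.8, in replicate 20, stood apart from the other 3 and was closer to DMSO than any I-BET 762 library. The log2 difference was -0.34 with JQ1 (SE 0.07, adjusted p = 0.000242) and -0.26 with I-BET 762 (SE 0.07, adjusted p = 0.00471). Without JQ1 replicate 20 the first was -0.42.

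IRF9, the DNA-binding subunit of ISGF3 (ENSG00000213928.10, chromosome 14, 24161234 to 24168043, plus strand), fell where STAT2 was not called. It was at 386.4, 368.9 and 395.9 normalized counts with DMSO, at 172.5, 150.1, 154.1 and 190.7 with JQ1 and at 266.7, 230.6 and 255.9 with I-BET 762. The 3 groups did not overlap. IRF9 fell by 1.20 on the log2 scale with JQ1 (SE 0.10, adjusted p = 2.77e-08) and by 0.61 with I-BET 762 (SE 0.11, adjusted p = 0.000154), the latter just past 1.5-fold. Without I-BET 762 replicate 22 the second difference was -0.55 and no longer past it. In Gencode V44 a readthrough gene on the same strand, ENSG00000259529, shares 23.9% of the IRF9 exon bases. How the reads of that stretch were counted is not given in the sources used here.

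IRF1, a factor induced by interferon that also keeps basal antiviral genes on (ENSG00000125347.15, chromosome 5, 132440440 to 132508719, minus strand), was, like STAT2, not called with either inhibitor. Its normalized counts were 1733.6, 1789.8 and 1634.4 with DMSO, 1257.0, 1172.9, 1172.5 and 1306.4 with JQ1, and 1302.8, 1258.2 and 1229.5 with I-BET 762. All 7 treated libraries were below the 3 DMSO libraries, and the treated groups overlapped. The log2 difference was -0.49 with JQ1 (SE 0.06, adjusted p = 1.31e-06) and -0.44 with I-BET 762 (SE 0.06, adjusted p = 1.26e-05), both short of 1.5-fold. With JQ1 it passed that threshold after scaling to equal totals, at -0.67, and to equal upper quartiles, at -0.60. IRF1-AS1, on the opposite strand, overlaps 22.9% of the IRF1 exon bases in Gencode V44.

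By adjusted p alone, 9 of the 9 genes differed from DMSO with JQ1 and 8 with I-BET 762, the exception being IRF3. The same threshold was met by 71.7% and 61.1% of all tested symbols. The libraries of JQ1 and DMSO did not overlap for any of the 9 genes, as for 68.4% of tested symbols, and those of I-BET 762 and DMSO for 8 of them, as for 71% of tested symbols. The share of tested symbols whose JQ1 and I-BET 762 libraries do not overlap is not reported here. Whether that separation is common among all symbols therefore cannot be judged from these values. The median log2 difference of the 9 genes was -0.49 with JQ1 and -0.44 with I-BET 762, beside 0.008 and -0.001 over all tested symbols.

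At the same dose and time, the inhibitors were compared directly for each of the 9 genes, with adjustment over all tested symbols. TLR3, IFIH1 and IRF9 were called lower with JQ1 than with I-BET 762, where 3.59% of tested symbols were called lower and 5.31% in either direction. TLR3 was lower by 0.97 on the log2 scale, or 1.95-fold (95% interval of the log2 difference -1.19 to -0.74, adjusted p = 1.44e-05). IFIH1 was 1.61-fold lower, a log2 difference of -0.69 (-0.79 to -0.58, adjusted p = 3.69e-07). For IRF9 the log2 difference was -0.59 (-0.81 to -0.37, adjusted p = 0.000594), just past 1.5-fold, and it ended between -0.54 and -0.58, short of 1.5-fold, without JQ1 replicate 18 or 19, without I-BET 762 replicate 21 or 23, or with a pseudocount of 5. DHX58 differed by -0.53 (-0.74 to -0.32, adjusted p = 0.0012), under 1.5-fold.

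The other 5 genes did not pass the threshold in the direct comparison. Their log2 differences, JQ1 minus I-BET 762, were -0.08 for STAT2 (95% interval -0.22 to 0.06), -0.04 for IRF1 (-0.17 to 0.08), 0.12 for IRF3 (-0.004 to 0.24), 0.02 for IFNAR1 (-0.09 to 0.14) and 0.11 for JAK1 (0.002 to 0.22). The adjusted p ranged from 0.122 for JAK1 to 0.775 for IFNAR1. None of these intervals reaches 0.25 in size, so a difference of 1.5-fold between the inhibitors lies outside all of them, while smaller ones are not ruled on.

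**Figure D3:**
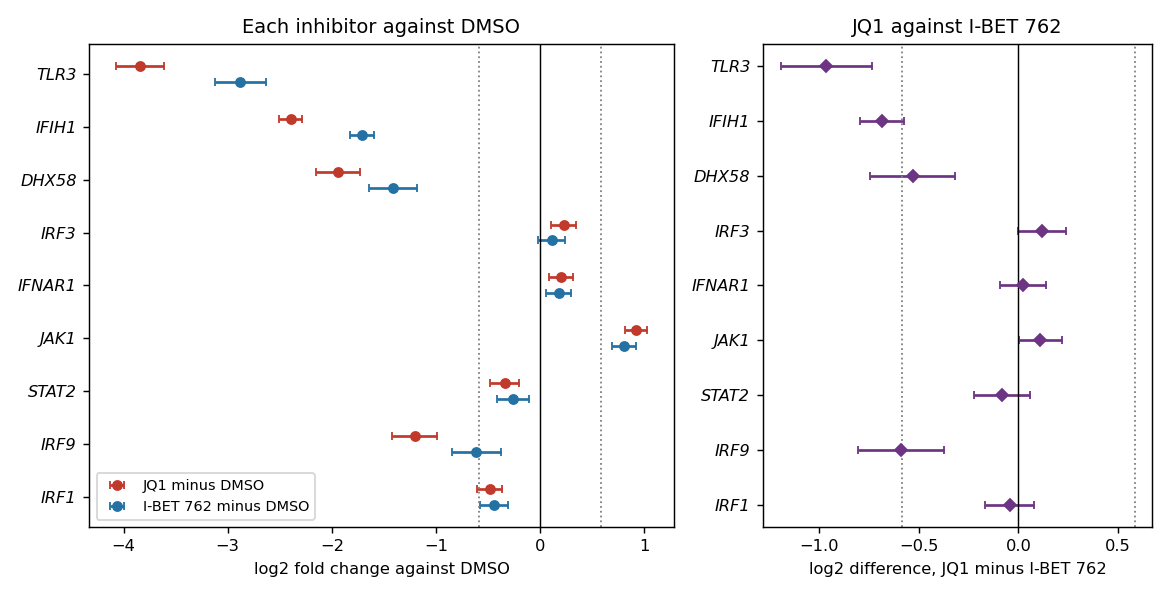
Log2 fold change of the 9 genes with JQ1 (red) and I-BET 762 (blue) against DMSO, left, and log2 difference of JQ1 minus I-BET 762, right, each with its 95% interval from limma and dotted lines at 1.5-fold. The red points of TLR3, IFIH1, DHX58 and IRF9 lie left of the blue ones, and their intervals in the right panel lie below 0.

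Levels can be set against each other only per length, here as normalized counts per kb of all annotated exon bases. With DMSO, IFIH1 was highest at 1017 ± 15.0 per kb (SD, n = 3), ahead of JAK1 at 782.4 ± 41.2, IRF3 at 547.1 and STAT2 at 422.0. DHX58 followed at 161.0, IRF1 at 140.2, IFNAR1 at 123.3, TLR3 at 121.9 and IRF9 at 59.3. IFNAR1 and TLR3 overlapped between libraries, and no other neighbours in this order did.

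The order changed with treatment. With JQ1, JAK1 was first at 1477 ± 75.6 per kb (SD, n = 4), IRF3 was at 639.8 and STAT2 at 334.2, and IFIH1 had moved to the fourth place at 193.4. IFNAR1 at 141.6 and IRF1 at 100.1 were then above DHX58 at 41.6, IRF9 at 25.8 and TLR3, last at 8.37 ± 0.65. The order with I-BET 762 was that of JQ1, from JAK1 at 1367 through IFIH1 at 310.8 to TLR3 at 16.5 per kb. No neighbours overlapped in either treated group. When the length of the canonical transcript was used instead, a choice made after seeing the data, JAK1 was first in all groups and IFIH1 the second with DMSO, and TLR3 was last in all 3.

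**Figure D4:**
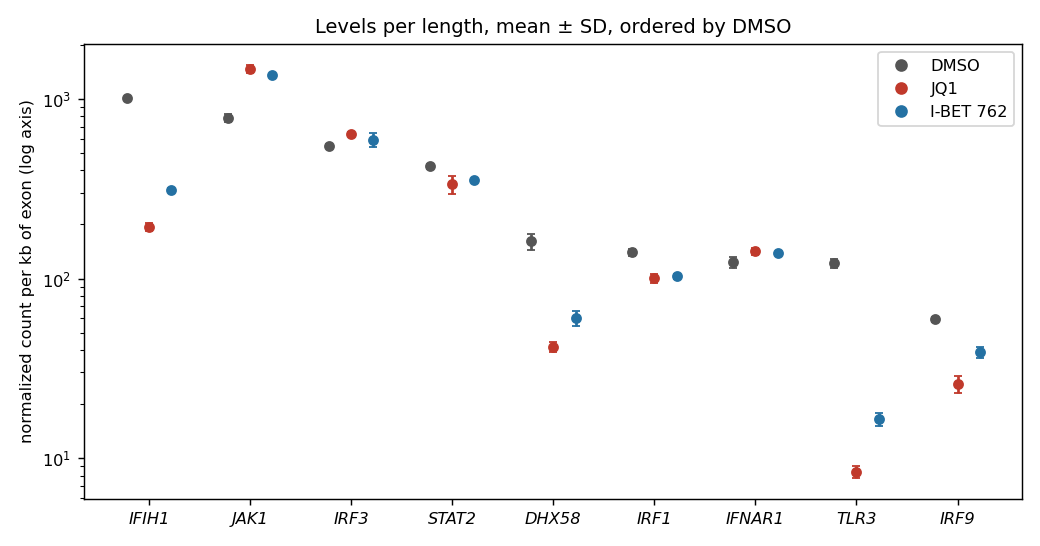
Level of each gene per length (normalized count per kb of exon, log axis) as mean and SD of 3 DMSO, 4 JQ1 and 3 I-BET 762 libraries, ordered by the DMSO mean. IFIH1 leads with DMSO at 1017 per kb and drops below JAK1, IRF3 and STAT2 with both inhibitors, and TLR3 ends lowest at 8.37 with JQ1 and 16.5 with I-BET 762.

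Because IRF9 and STAT2 moved unequally, their proportions differed between groups on the per-length scale with canonical transcripts. The ratio of IRF9 to STAT2 level was 0.256 to 0.281 in the DMSO libraries, 0.135 to 0.161 with JQ1 and 0.187 to 0.224 with I-BET 762, with no overlap. For the receptor kinases, the ratio of JAK1 to TYK2 level was 1.72 to 2.0 with DMSO, 3.60 to 4.45 with JQ1 and 3.34 to 3.55 with I-BET 762. IFIH1 to DHX58, the pair of cytosolic sensors, stood at 5.68 to 6.63 with DMSO and at 4.33 to 4.82 with JQ1, with I-BET 762 between at 4.83 to 5.67.

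Of 9 other sensor genes with values, 4 passed the filter, and all 4 fell with both inhibitors, with medians of -1.255 on the log2 scale in each. Called lower among all tested symbols were 22.8% with JQ1 and 17.9% with I-BET 762. DDX58, which encodes RIG-I, went from 402.0 ± 18.5 normalized counts with DMSO (SD, n = 3) to 134.6 ± 15.4 with JQ1 and 129.8 ± 9.49 with I-BET 762, log2 differences of -1.58 and -1.63. Those of the DNA sensor IFI16 were -2.04 and -1.76, those of the RNA-activated kinase EIF2AK2 (PKR) -0.93 and -0.73, and those of CGAS, which makes the messenger that STING1 reads, -0.81 and -0.89. Unlike TLR3 and IFIH1, but like DHX58, none of these 4 was called in the direct comparison of the inhibitors. IFI16 (-0.28, adjusted p = 0.00713) and EIF2AK2 (-0.20, adjusted p = 0.00271) were lower with JQ1 in limma, but by under 1.5-fold. DDX58 (0.05, adjusted p = 0.779) and CGAS (0.08, adjusted p = 0.445) did not pass the adjusted p. The difference between the 2 sets of genes was not tested.

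Of 9 adaptors and kinases downstream of the sensors or of other Toll-like receptors, 4 fell with JQ1 and 3 with I-BET 762, and 0 rose. Their median log2 differences were -0.185 and -0.251. The share of all tested symbols called lower was 22.8% with JQ1 and 17.9% with I-BET 762. STING1, the adaptor of the CGAS branch, fell from 83.5 normalized counts to 9.12 with JQ1 and 11.2 with I-BET 762. The log2 differences were -3.16 (SE 0.33) and -2.82 (SE 0.36). Its treated libraries were low, at 4.4 to 13.0 with JQ1 and 8.86 to 15.0 with I-BET 762, the lowest near the limit for a count of 0. The kinase IKBKE fell (-1.99 and -1.33), as did MYD88, the adaptor of most other Toll-like receptors (-0.94 and -0.99). TRAF3, an adaptor shared by the sensor branches, fell with JQ1 (-0.70), and its difference of -0.52 with I-BET 762 was under 1.5-fold. MAVS, the adaptor through which IFIH1 signals, was not called (-0.19 and -0.06), nor was the IRF3 kinase TBK1 (0.27 and 0.15).

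Interferon genes themselves were scarcely read. Of 5 ligand genes in the table only IFNE passed the filter, at 33.1 to 61.0 normalized counts over all libraries, and it was not called with either inhibitor (-0.15 and -0.23 on the log2 scale). With no filter on low values IFNL1 was called lower with JQ1, on 1.85 to 3.87 normalized counts with DMSO and 0 to 1.1 with JQ1, at or near the limit for a count of 0. IFNB1, the interferon that IRF3 activates directly, was at 0 to 2.77 normalized counts, within the limit for a count of 0, so a change in it was not detectable at this depth.

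Among 5 other interferon receptor genes, 2 rose and 2 fell with JQ1, and 2 rose and 1 fell with I-BET 762. Their medians were 0.467 and 0.214. All tested symbols were called higher in 13.3% and lower in 22.8% with JQ1, and in 8.96% and 17.9% with I-BET 762. IFNAR2, the partner of IFNAR1, rose by 0.83 and 0.88 on the log2 scale, from 40.3 ± 5.75 normalized counts to 72.4 ± 10.1 and 75.6 ± 14.5 (SD). Exon overlap with other genes was looked at only for the 9 genes, so whether IFNAR2 shares reads with another gene was not examined. IFNGR1 rose by 0.71 and 0.61, but by 0.52 with both inhibitors after scaling to equal totals, short of 1.5-fold. IFNLR1, the receptor chain of type III interferon, fell, with log2 differences of -2.23 and -1.61. IFNGR2 was called lower with JQ1 (-1.14, adjusted p = 0.027) although its libraries overlapped those of DMSO, and the call was lost without DMSO replicate 14 (adjusted p = 0.102) or 15 (0.0975) and without JQ1 replicate 18 (0.0573) or 20 (0.0929), and in a fit without the intensity trend (0.0987).

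For comparison, 36.1% of all tested symbols were called in either direction with JQ1 and 26.9% with I-BET 762, with 22.8% and 17.9% lower. Of 8 other JAK and STAT genes tested, 3 fell with each inhibitor and 0 rose, with medians of -0.309 and -0.287. They were STAT5A, which signals for growth hormone and interleukin receptors (-2.77 with JQ1 and -2.09 with I-BET 762 on the log2 scale), JAK3, the kinase of the common gamma chain (-1.91 and -1.17), and STAT6, the factor of interleukin-4 signalling (-1.09 and -1.02). TYK2, the partner kinase of JAK1, was not called (-0.13 and -0.08). Of 4 other IRF genes tested, with medians of -0.340 and -0.571, IRF5 fell (-1.22 and -1.02), and IRF7, the interferon-inducible amplifier, was low and not called. Its JQ1 libraries had 59.3, 10.9, 17.0 and 15.2 normalized counts beside a DMSO mean of 16.0 and an I-BET 762 mean of 16.5, and the log2 difference with JQ1 was 0.42, or -0.083 without JQ1 replicate 17, the library at 59.3.

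Of 10 negative regulators of the pathway, 3 rose and 4 fell with JQ1, and 2 rose and 3 fell with I-BET 762. Their medians were 0.328 and 0.139. After scaling to equal totals 2 rose and 4 fell with JQ1, and 2 rose and 3 fell with I-BET 762. With 1 library left out, 6 to 7 were called with JQ1 and 5 to 6 with I-BET 762. Over all tested symbols 13.3% were called higher and 22.8% lower with JQ1, and 8.96% and 17.9% with I-BET 762. The phosphatase PTPN6 rose from a mean of 9.96 normalized counts with DMSO to 46.3 with JQ1 and 26.4 with I-BET 762, and SOCS1, which blocks JAK kinases, rose from 28.2 to 92.7 and 52.2. USP18, the interferon-inducible protein that restrains IFNAR2 signalling, fell, with log2 differences of -1.34 and -1.13, and so did SOCS3, an inhibitor of cytokine receptors (-0.81 and -1.10). The largest group was 25 interferon-stimulated effectors, the antiviral genes downstream of ISGF3, of which 19 fell with JQ1 and 20 with I-BET 762 and 0 rose, with median log2 differences of -2.02 and -1.88. MX2 (-4.85 with JQ1 and -3.62 with I-BET 762), XAF1 (-4.84 and -3.74), IFI44L (-4.46 and -3.19) and IFI44 (-3.38 and -2.70) had the largest falls with JQ1. MX2 was at 1.1 normalized counts in JQ1 replicate 17, within the limit for a count of 0, and its difference was -4.20 without that library, smaller than those of XAF1 (-4.78) and IFI44L (-4.47). The 41 tested genes of the 7 lists without the effectors had medians of -0.19 and -0.28. In the direct comparison 4 of these 41 were called lower with JQ1 than with I-BET 762 and 1 higher. The 4 were IKBKE (-0.66 on the log2 scale), IFNLR1 (-0.62), JAK3 (-0.74) and STAT5A (-0.69). The IFNLR1 call was lost without JQ1 replicate 18 or I-BET 762 replicate 21. Of the 25 effectors 4 were called lower, among them IFI44L (-1.27) and XAF1 (-1.11), and 2 higher. Over all tested symbols 3.59% were called lower and 5.31% in either direction.

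**Figure D5:**
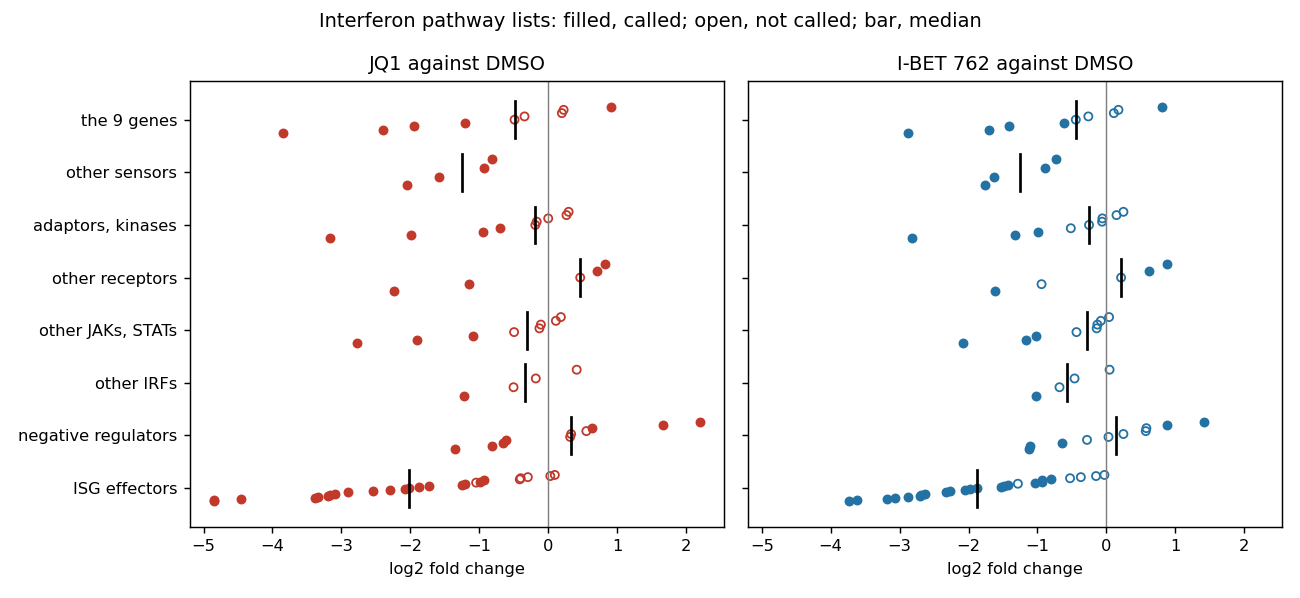
Log2 fold change against DMSO of the 9 genes and of the tested genes of 7 further interferon pathway lists with JQ1 (left) and I-BET 762 (right), on the same axis, filled where called, open where not, with a bar at each list's median. The other sensors lie left of 0 in both panels, the effectors have a median of -2.02 with JQ1, and receptors and negative regulators fall on both sides of 0.

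For the 3 genes with the largest change, the symbols nearest in pattern over the 10 libraries were sought by the root mean square (RMS) difference of log2 values centred on the DMSO mean. Nearest to TLR3 was SEMA6B (RMS 0.131), then PLEKHG4B (0.199) and MYO5C (0.212). Nearest to IFIH1 were TYRO3 (0.085), SCARA3 (0.092) and RASL12 (0.094), and nearest to DHX58 were PATJ (0.103), TDRD12 (0.107) and MAPKAPK3 (0.119). None of these 9 symbols is in the pathway lists, and the 10 libraries of each pair share the same 3 treatments.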

How the data were processed

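RNA of SK-UT-1 cells was made into strand-specific total RNA libraries. The authors report quality control with FastQC 0.73, trimming with Trimmomatic, alignment to hg38 with HISAT2 2.2.1, counting of Gencode genes with featureCounts 2.0.3, normalization with DESeq2 and removal of outlier samples. The authors deposited, for 22784 symbols, normalized counts on a log2 scale with 1 added before the log. They cover 10 of 12 labelled libraries, and the other 2 were not analysed here. With the log2 undone, 99.74% to 99.77% of values per library were whole multiples of 1 read, within 0.02 read, which gave the reads per library. Normalized counts in the text are the values with the log2 and the pseudocount of 1 undone.

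Groups followed the labelled treatment. Replicate numbers run from 13 to 24 across the groups and the labels name no pairing, so none was modelled, and whether any exists is not known. These log2 values entered a linear model of all 10 libraries in limma 3.58.1 (R 4.3.3), with an intensity trend, over 14839 symbols with a normalized count of at least 10 in at least 3 libraries. All adjusted p-values are Benjamini-Hochberg values from this fit, and fold changes are on the log2(value + 1) scale, which understates those of low genes. A DEG had an adjusted p under 0.05 and a fold change over 1.5. The code was tested on simulated data. Gene positions, lengths and overlaps came from Gencode V44 on hg38, in which 95.7% of the symbols were found, and promoters from RefSeq. The authors report counting with an earlier Gencode version, in which lengths and overlaps may differ. Python 3.11.15 was used for tables and figures.

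The 9 genes and the pathway lists were chosen with earlier results of these data known. The text names the 9 genes, up to 4 called genes per list with the largest change with JQ1, further pathway genes whatever their values, of which 1 is not reported here, and the 3 nearest patterns of the 3 most changed genes. Alternatives were other pseudocounts, filters, scalings and fold thresholds, a fit without trend or with 2 groups only, limma-voom on the recovered reads, and each library left out.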

Additional observations from a re-analysis of the deposited data

Results flagged for a closer look

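STAT2 in JQ1 replicate 20 was a library far from the others of its group. Its 3618.8 normalized counts left a gap to the next JQ1 library of 0.835 of the group's whole range, just above Dixon's critical value of 0.829 for 4 libraries. The ratio was taken on normalized counts and not on the log2 values used in the tests, so it is no flag on that scale. The check was made only in groups of at least 4 libraries, so only in the JQ1 group. In it 9 genes were looked at, and chance flags about 1 in 20 groups. Without that library the log2 difference of STAT2 with JQ1 was -0.42 in place of -0.34, and it was under 1.5-fold in both.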

How the results depend on the processing

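No paired analysis was run because the labels name no pairing between the 3 groups. The running replicate numbers do not show whether there was one. Of 513 log2 differences of the 9 genes recomputed under the alternatives, 500 kept their direction and were called or not as before, 6 lost a call, 4 gained one and 3 reversed. Of the 513, 10 crossed the adjusted p of 0.05 with no change of call. They were IRF3 with JQ1 and IFNAR1 with both inhibitors under both rescalings (adjusted p 0.0802 to 0.781), IFNAR1 with I-BET 762 without 1 library as in the report, IRF3 with I-BET 762 without I-BET 762 replicate 23 (0.17, adjusted p 0.0222), and STAT2 in the direct comparison without JQ1 replicate 20 (-0.16, adjusted p 0.0177). The reversed values were those of IFNAR1 in JQ1 minus I-BET 762, at -0.064 with equal totals, -0.020 with equal upper quartiles and -1e-04 without JQ1 replicate 18, none near a call, and with 1 library left out they ran from -1e-04 to 0.046. The 6 lost calls were those of IRF9 named in the report, and the 4 gained were IRF1 with JQ1 under both rescalings and DHX58 in the direct comparison, at -0.62 with equal totals and -0.61 without I-BET 762 replicate 23. The called genes among the 9 numbered 5 with each inhibitor and 3 in the direct comparison. With no fold threshold they were 9 with JQ1 and 8 with I-BET 762, and with a 2-fold threshold 3 with I-BET 762 and 0 in the direct comparison. With 1 library left out they were 5 to 5, 4 to 5 and 2 to 3. Over all symbols, 5358 were called with JQ1, 3991 with I-BET 762 and 788 directly. The counts were 3359, 2338 and 418 for a mean of at least 100 normalized counts, 10633, 9073 and 4047 with no fold threshold, and 2958, 2108 and 206 at 2-fold. They ranged from 4962 to 5394, from 3615 to 4018 and from 603 to 873 without 1 library. Of the called symbols, 63.1% were lower with JQ1, 66.7% with I-BET 762 and 67.5% directly, against 77.7%, 75.7% and 82.2% with equal totals, which lowers the median of all genes by 0.185, 0.096 and 0.089 on the log2 scale. With equal upper quartiles the shares were 72.6%, 73.2% and 75.5%. Canonical transcript lengths gave another rank in the order of levels to 7 genes with DMSO, 5 with JQ1 and 2 with I-BET 762, and 1 mismatch raised the genes with a GAS core from 3 to 6. The cause of these changes was not tested beyond what each alternative sets. Of the interferon ligand genes, only IFNE had the reads for a test.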
